A study of Mus musculus with 7 samples.

Results

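The genes described here are the cytochrome P450 enzymes of families 1, 2 and 3, the families that carry out most oxidation of drugs and other foreign compounds in the liver. A gene was included where a row of the array table carried a single gene symbol made of Cyp, the family number 1, 2 or 3, a subfamily letter and a number, and where a gene had several such rows the brightest would have been taken. This gave 52 genes of the 19933 genes with a single-symbol row, and each of the 52 had 1 row. They comprised 2 genes of subfamily 1a, 1 of 1b, 2 of 2a, 5 of 2b, 13 of 2c, 9 of 2d, 6 of 2j, 6 of 3a, and 8 of other family 2 subfamilies.

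Total RNA from whole liver of male C57BL/6 mice aged 4 months was hybridised to Affymetrix Mouse Gene ST arrays, 1 array per liver. All 7 mice had received AAV-Cre, an adeno-associated virus that delivers the Cre recombinase. The 3 knockout mice received AAV-Cre alone, and the 4 rescued mice also received AAV-Flag-HDAC3, a vector for wild-type HDAC3. The rescued arrays are titled WT, but they are livers that received Cre with HDAC3 put back. The labels name no floxed allele and no promoter for either vector, and no liver without AAV-Cre was analysed here. The mice ate chow freely and were killed 2 weeks after injection at 5 pm, which is ZT10, 10 hours after lights on. The comparison asks how the P450 genes differ between livers depleted of the histone deacetylase HDAC3 and livers with HDAC3 restored by vector.

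Cytochrome P450 enzymes are haem proteins of the endoplasmic reticulum that insert an oxygen atom into small lipophilic molecules, with electrons passed on by the NADPH-dependent P450 reductase and by cytochrome b5. Families 1 to 3 are induced by foreign compounds through nuclear receptors and related sensors: AhR drives family 1, CAR drives subfamily 2b and PXR drives subfamily 3a. In mouse liver several members also differ between the sexes, because the pattern of growth hormone release acts on them through STAT5, and many are expressed mainly in the pericentral zone of the lobule. The mouse carries more copies than the human genome, most of them in tandem clusters of close paralogs.

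Values are log2 intensities, and a difference is the knockout mean minus the rescued mean. A gene was called where the adjusted p of limma's moderated test, with Benjamini-Hochberg adjustment over all 19933 genes, was under 0.05. Counts of genes with an unadjusted p under 0.05 are also given. At least 14.4% of all genes, the share called, had such a p, and the full share was not counted here. Hdac3, the targeted gene, read 8.93, 8.75 and 9.07 in knockout replicates 1 to 3 and 9.23, 9.45, 9.55 and 9.38 in rescued replicates 1 to 4, so the groups did not overlap. It was 1.40-fold lower in knockout livers (difference -0.48, adjusted p = 0.0124 in limma's test); the difference ran from -0.56 to -0.40 with an array left out, and the call failed only on omitting knockout replicate 1. The arrays as deposited were not level: array medians were 105.01 to 110.85 in knockout and 96.289 to 102.33 in rescued livers, and the median difference over all genes was 0.09. Calls were therefore also made after quantile normalisation, median centring and cyclic loess scaling. The 1194 olfactory and vomeronasal receptor genes stood for dim rows. A group mean over 6.21, the 95th percentile of their levels, is called above the receptor genes, and no fold is given for a P450 gene that did not reach this in both groups. In whole-liver RNA, fewer cells of a type and less RNA per cell cannot be told apart.

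In the deposited values more P450 genes were higher than lower in livers without restored HDAC3, as was so for all genes, of which 1901 were called higher and 966 lower. Of the 52 genes, 15 were called in limma's test, or 28.8%, against 14.4% of all genes. The 12 called higher made up 23.1% of the P450 genes, against 9.54% of all genes, and the 3 called lower made up 5.77%, against 4.85%, which is near the background. Their median difference was 0.12, beside 0.09 for all genes, and fell to 0.03 beside 0.00 after cyclic loess. Most of the higher calls depended on the scaling. The counts of P450 genes called higher and lower were 6 and 3 after quantile normalisation, 5 and 3 after cyclic loess, and 5 and 6 after median centring, where the balance turned. Over all genes more were lower than higher in each of these: 899 higher and 1060 lower after quantile normalisation, 873 and 1068 after cyclic loess, and 672 and 1801 after median centring. In all 4 treatments of the arrays, 4 genes were called higher, Cyp2c38, Cyp2c39, Cyp2d40 and Cyp3a44, or 7.69% against 2.61% of all genes. The genes called lower in all 4 were the same 3 as in the deposited values, Cyp2c54, Cyp2c67 and Cyp2d13, or 5.77% against 4.06%.

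**Figure D1:**
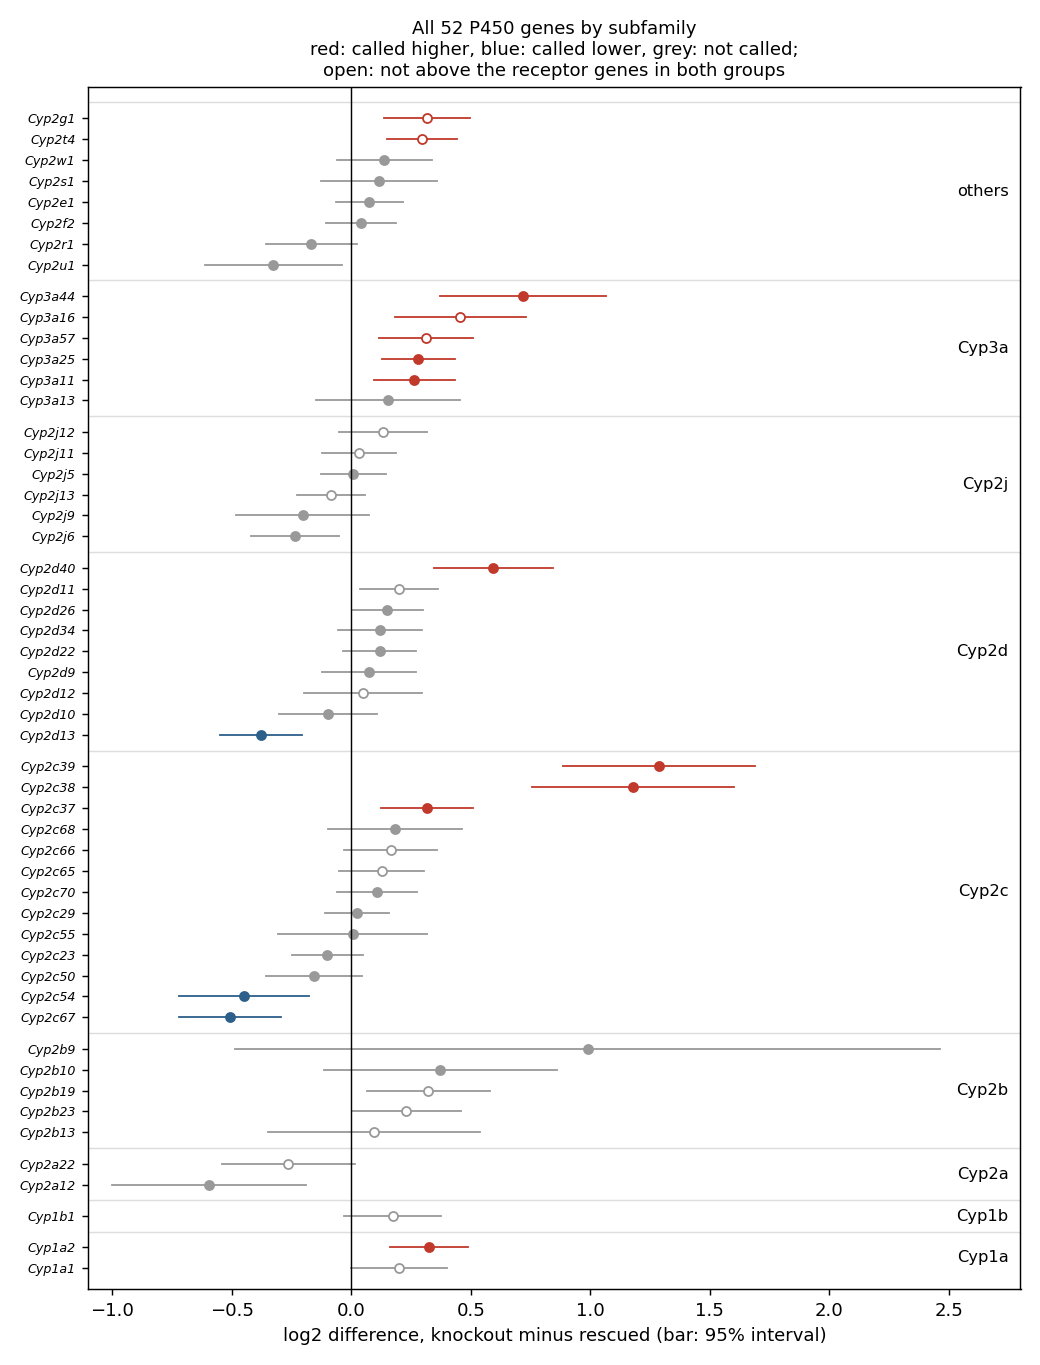
Difference in log2 intensity, knockout minus rescued, for each of the 52 P450 genes by subfamily; points are differences of group means (n = 3 and 4 arrays), bars are 95% intervals, red and blue mark genes called higher and lower, and open points are genes not above the receptor genes in both groups. Cyp2c39 (1.29) and Cyp2c38 (1.18) lie farthest to the right among called genes, and all 6 genes of subfamily 3a lie right of 0.

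The 3 knockout arrays lay entirely above or below the 4 rescued arrays for 23 of the 52 genes, or 44.2%, against 29.6% of all genes; 16 of these were higher and 7 lower. After cyclic loess the groups were separate for 16 genes, or 30.8%, against 24.6%. Of the 52 genes, 35 were above the receptor genes in both groups, 16 in neither and Cyp2b23 in knockout livers alone. Among the 35, 11 were called, or 31.4%, against 16.9% of the 12567 genes above the receptor genes in both groups. The number of higher calls also moved with single arrays: omitting knockout replicate 1 left 3, knockout replicate 2 left 5, rescued replicate 2 left 6, rescued replicate 3 left 3 and rescued replicate 4 left 5, while omitting knockout replicate 3 or rescued replicate 1 left 10. The calls of 5 genes held in all 4 scalings and with each array left out: Cyp2c38, Cyp2c39 and Cyp2d40 higher, and Cyp2c67 and Cyp2d13 lower.

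**Figure D2:**
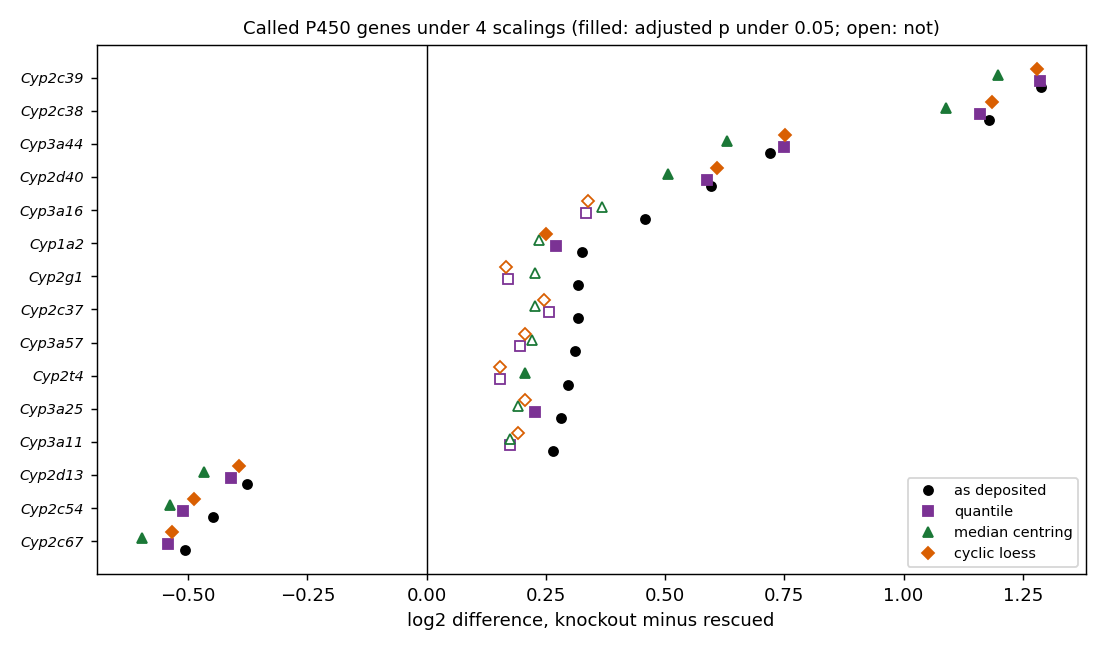
Differences of the called P450 genes as deposited and after quantile normalisation, median centring and cyclic loess, on the log2 scale, knockout minus rescued; filled symbols are called and open ones are not. Cyp2c38 and Cyp2c39 stay near their deposited values of 1.18 and 1.29, while the small differences of genes such as Cyp3a11 (0.26 as deposited) shrink.

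Subfamily 2c, which in the mouse makes epoxides and hydroxylated products of arachidonic acid besides metabolising drugs, held genes that moved in opposite directions. Of its 13 genes 3 were called higher and 2 lower, with 2 and 2 in every scaling, and 9 of the 13 differences were positive as deposited and 7 in each other scaling, with a median of 0.11 as deposited and 0.013 to 0.020 otherwise. The sequences upstream of the genes with the steadiest calls, Cyp2c38 and Cyp2c39 higher and Cyp2c67 lower, are shown with that of Cyp2c29, a close relative whose level did not pass the test. They come from RefSeq on build GRCm38.p6, run from 250 bases before each start site to 30 after it, and are written 5′ to 3′ on the gene's strand. Capitals mark TATAAA, the letters of a TATA box, AGGTCA, the core site of nuclear receptors, and CAAAGTCCA, a site of the type bound by HNF4A.
Cyp2c29, chr19:39286835-39287114, plus strand: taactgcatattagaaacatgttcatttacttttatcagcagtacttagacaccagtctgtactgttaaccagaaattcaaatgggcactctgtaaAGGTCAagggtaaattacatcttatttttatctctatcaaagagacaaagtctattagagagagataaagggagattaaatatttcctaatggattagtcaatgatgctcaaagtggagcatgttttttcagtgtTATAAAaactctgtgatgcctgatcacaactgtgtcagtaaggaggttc
Cyp2c38, chr19:39463046-39463325, minus strand: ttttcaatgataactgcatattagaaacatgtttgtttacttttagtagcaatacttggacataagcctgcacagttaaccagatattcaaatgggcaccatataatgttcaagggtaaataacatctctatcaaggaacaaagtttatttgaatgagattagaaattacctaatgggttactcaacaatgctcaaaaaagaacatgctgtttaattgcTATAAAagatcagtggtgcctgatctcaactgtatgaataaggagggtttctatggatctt
Cyp2c39, start site 1, chr19:39347096-39347375, plus strand: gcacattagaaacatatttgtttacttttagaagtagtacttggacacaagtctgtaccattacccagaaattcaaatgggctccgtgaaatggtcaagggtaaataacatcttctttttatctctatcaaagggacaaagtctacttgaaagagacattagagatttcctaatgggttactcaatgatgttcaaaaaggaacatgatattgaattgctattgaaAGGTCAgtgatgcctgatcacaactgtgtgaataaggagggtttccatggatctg
Cyp2c39, start site 2, chr19:39510572-39510851, plus strand: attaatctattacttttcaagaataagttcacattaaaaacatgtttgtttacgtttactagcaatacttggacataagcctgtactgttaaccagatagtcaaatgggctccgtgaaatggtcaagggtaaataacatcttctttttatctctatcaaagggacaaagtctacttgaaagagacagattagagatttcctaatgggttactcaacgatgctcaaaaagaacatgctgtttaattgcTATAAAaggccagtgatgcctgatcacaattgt
Cyp2c67, chr19:39649013-39649292, minus strand: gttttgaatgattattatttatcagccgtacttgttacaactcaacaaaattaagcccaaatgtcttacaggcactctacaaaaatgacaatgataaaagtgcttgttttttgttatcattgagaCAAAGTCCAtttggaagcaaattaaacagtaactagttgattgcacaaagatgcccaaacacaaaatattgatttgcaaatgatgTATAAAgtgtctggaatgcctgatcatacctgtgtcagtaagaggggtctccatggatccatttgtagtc
Over windows of 300 bases, 82.0% of the Cyp2c38 bases were identical to those of Cyp2c39 start site 1 and 79.7% to those of start site 2. Cyp2c29 was about as close: it matched Cyp2c39 at 79.0% for start site 1 and 74.3% for start site 2, and Cyp2c38 at 76.0%. Cyp2c67 was less alike, at 58.7% to 65.0% with the other windows shown, beside a median of 58.0% over pairs of subfamily 2c. Counted from the start site, TATAAA begins at -31 in Cyp2c38, at -40 in Cyp2c67, at -19 in Cyp2c29 and at -3 in start site 2 of Cyp2c39, and was not found in the window of start site 1. AGGTCA begins at -154 in Cyp2c29 and at -25 in start site 1 of Cyp2c39, and CAAAGTCCA at -125 in Cyp2c67. RefSeq places Cyp2c38 inside the span of Cyp2c39, on the opposite strand.

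Cyp2c39, an epoxygenase that also hydroxylates retinoic acid, read 7.84, 8.69 and 8.64 in the knockout livers and 7.15, 6.93, 7.35 and 6.97 in the rescued livers. Every knockout array lay above every rescued array, and knockout replicate 1 was the lowest of its group. The mean of 8.39 ± 0.48 (SD, n = 3) was 2.44-fold above 7.10 ± 0.19 (SD, n = 4), a difference of 1.29 (SE 0.18, adjusted p = 0.00250 in limma's test). With any array left out it was between 1.14 and 1.56. Cyp2c38, another arachidonic acid epoxygenase, read 10.37, 10.80 and 10.69 in knockout and 9.60, 9.66, 9.69 and 8.81 in rescued livers. The groups were separate, and rescued replicate 4 stood well below the other rescued arrays. The difference was 1.18 (SE 0.19, adjusted p = 0.00527 in limma's test), or 2.26-fold, and 0.97 without rescued replicate 4.

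Cyp2c67 went the other way. It read 10.96, 10.98 and 10.77 in knockout and 11.56, 11.55, 11.29 and 11.25 in rescued livers, with no overlap. The means of 10.90 ± 0.12 (SD, n = 3) and 11.41 ± 0.17 (SD, n = 4) differed by -0.51 (SE 0.10, adjusted p = 0.0107 in limma's test), 1.42-fold lower. Cyp2c54, which oxidises linoleic and arachidonic acid, read 11.22, 11.12 and 11.73 against 11.77, 11.77, 11.80 and 11.88. Knockout replicates 1 and 2 were low, while replicate 3 lay just under the rescued arrays. It differed by -0.45 (SE 0.12, adjusted p = 0.0381 in limma's test), 1.36-fold. With 1 array left out it ran from -0.64 to -0.33. It was no longer called when knockout replicate 1 or 2, or rescued replicate 2, 3 or 4, was omitted.

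Cyp2c37, which hydroxylates arachidonic acid and is a CAR target, read 12.78, 12.82 and 12.97 against 12.42, 12.68, 12.43 and 12.63. The groups were separate but close, with a difference of 0.32 (SE 0.09, adjusted p = 0.0382 in limma's test), 1.25-fold. It was not called after any other scaling, and with an array left out, at 0.26 to 0.36, it was called only without rescued replicate 2. Cyp2c29, induced through CAR, read 12.98, 12.97 and 12.99 against 12.94, 12.96, 12.94 and 12.99. These values overlapped, and the difference was 0.02 with a 95% interval of -0.11 to 0.16, turning to -0.054, -0.066 and -0.056 after quantile normalisation, median centring and cyclic loess. Cyp2c70, which makes the muricholic bile acids of rodents, differed by 0.11 (interval -0.06 to 0.27). Cyp2c23 differed by -0.10 and did not pass (adjusted p = 0.300 in limma's test), though its groups were separate. Cyp2c50, Cyp2c55 and Cyp2c68 differed by -0.16, 0.01 and 0.18 and were not called, and the difference of Cyp2c55 turned negative in the other scalings. Cyp2c65 and Cyp2c66 were not above the receptor genes in either group.

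**Figure D3:**
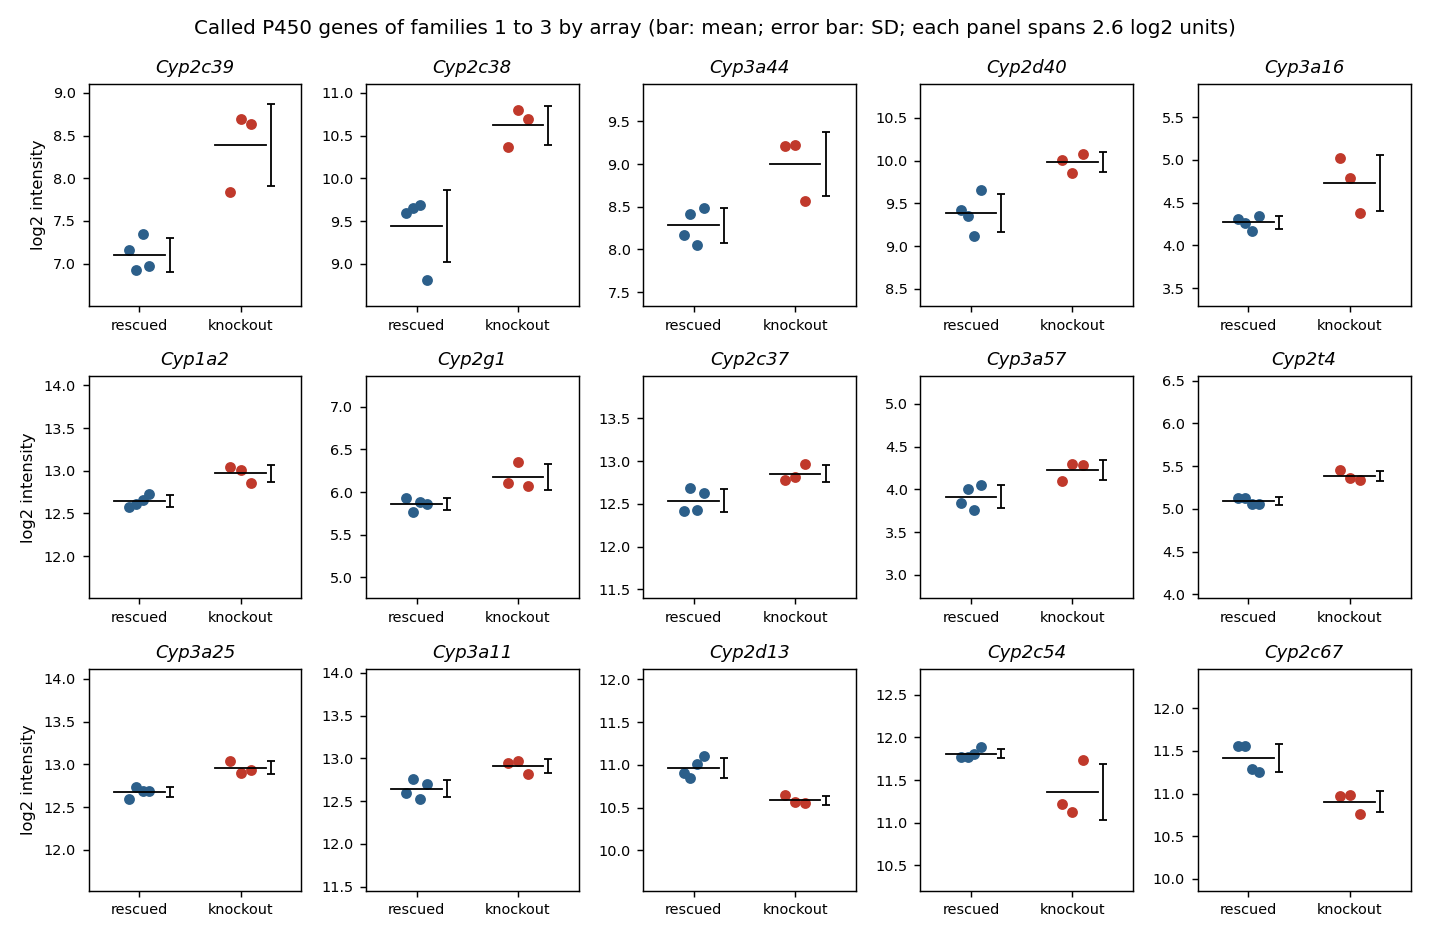
Log2 intensity of the called P450 genes in each array, with knockout arrays in red and rescued arrays in blue, horizontal lines for means and error bars for SD (n = 3 and 4). For each of the 15 genes the arrays of the groups do not overlap; the gap is widest for Cyp2c39 and Cyp2c38, and knockout replicate 3 of Cyp2c54 (11.73) lies just below the lowest rescued array (11.77).

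Subfamily 3a holds the main drug-oxidising enzymes under PXR. All 6 of its genes had positive differences in each scaling, with a median of 0.30 as deposited and 0.21 otherwise, and 5 were called higher and none lower as deposited. In every scaling 1 was called, Cyp3a44, one of the forms known to be higher in female liver. It read 9.21, 9.23 and 8.57 in knockout and 8.18, 8.42, 8.05 and 8.48 in rescued livers. The groups were separate, with knockout replicate 3 near the rescued arrays. The difference was 0.72 (SE 0.16, adjusted p = 0.0179 in limma's test), 1.65-fold. It lay between 0.61 and 0.94 with an array left out and stopped being called when knockout replicate 1 or 2, or rescued replicate 3, was omitted.

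Cyp3a11, the major PXR-induced form, read 12.94, 12.97 and 12.81 against 12.59, 12.76, 12.53 and 12.70. The groups did not overlap, and the difference was 0.26 (SE 0.08, adjusted p = 0.0451 in limma's test), 1.20-fold. The call was lost in all 3 other scalings (0.18 to 0.19). With an array left out it held only without knockout replicate 3, at differences of 0.23 to 0.31. Cyp3a25 read 13.04, 12.90 and 12.93 against 12.60, 12.74, 12.69 and 12.69, a difference of 0.28 (SE 0.07, adjusted p = 0.0267 in limma's test), 1.22-fold, also without overlap. It was not called after median centring (0.19) or cyclic loess (0.21), nor when knockout replicate 1, or rescued replicate 2, 3 or 4, was omitted, with differences of 0.24 to 0.30. Cyp3a13, best known from the intestine, differed by 0.15 (interval -0.15 to 0.46). Cyp3a16 (5.02, 4.79 and 4.37 against 4.31, 4.26, 4.17 and 4.34) and Cyp3a57 (4.09, 4.29 and 4.29 against 3.84, 4.01, 3.76 and 4.05) were called higher at levels not above the receptor genes. Both calls were lost in the other scalings. Cyp3a16 was called with an array left out only without knockout replicate 3 or rescued replicate 1, and Cyp3a57 in no such fit (differences 0.31 to 0.63 and 0.26 to 0.38).

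In subfamily 2d, 1 of 9 genes was called higher and 1 lower, both in every scaling. The median difference was 0.12 as deposited, near the offset of 0.09 over all genes, and 0.014 to 0.031 in the other scalings. Cyp2d40 read 10.01, 9.86 and 10.08 in knockout and 9.42, 9.36, 9.12 and 9.65 in rescued livers, with no overlap. It was 1.51-fold higher, at 9.98 ± 0.11 (SD, n = 3) against 9.39 ± 0.22 (SD, n = 4), a difference of 0.60 (SE 0.11, adjusted p = 0.00988 in limma's test). Cyp2d13, listed by RefSeq as a transcribed pseudogene, read 10.65, 10.56 and 10.55 against 10.90, 10.84, 11.01 and 11.10. Here too the groups were separate, and the difference was -0.38 (SE 0.08, adjusted p = 0.0143 in limma's test), 1.30-fold lower. A pseudogene's probes can also bind transcripts of the working paralogs, which was not tested.

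Cyp2d9, a testosterone hydroxylase typical of male liver, read 12.04, 11.71 and 11.72 against 11.83, 11.71, 11.73 and 11.73. Its groups overlapped and its difference of 0.07 (interval -0.12 to 0.27) turned to -0.015 after median centring and to -0.034 without knockout replicate 1. Cyp2d26 read 13.42, 13.41 and 13.36 against 13.20, 13.26, 13.18 and 13.34, separate by a small gap, with a difference of 0.15 (interval 0.00 to 0.30, adjusted p = 0.133 in limma's test). The remaining 5 genes, among them Cyp2d22, the closest relative of human CYP2D6, were not called, with differences from -0.10 to 0.20; Cyp2d11 and Cyp2d12 were not above the receptor genes in either group. Cyp2d34 carried the same value, 6.72, in all 3 knockout arrays. This is shared by 60 of the 27541 rows of the table and leaves its spread unmeasured.

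In family 1, 1 of 3 genes was called. Cyp1a2, a pericentral enzyme that metabolises caffeine and aromatic amines, read 13.04, 13.01 and 12.86 in knockout and 12.57, 12.61, 12.66 and 12.73 in rescued livers, without overlap. It was 1.25-fold higher (difference 0.33, SE 0.07, adjusted p = 0.0199 in limma's test). It was not called after median centring (0.24) or when knockout replicate 1 or 2, or rescued replicate 2 or 3, was omitted, where the difference was 0.29 to 0.33. Cyp1a1, the classical AhR-induced gene, read 6.11, 6.07 and 5.89 against 5.90, 5.96, 5.79 and 5.63, and Cyp1b1, which acts on oestradiol mainly outside the liver, 6.34, 6.08 and 5.96 against 5.92, 6.02, 5.87 and 6.01. Both overlapped between groups, had means under the receptor genes' cutoff of 6.21 in both groups and were not called (adjusted p = 0.138 and 0.193 in limma's test).

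Subfamily 2b, the main target of CAR, gave no call in limma's test although all 5 differences were positive as deposited, with a median of 0.32, or 0.18 to 0.23 otherwise (Cyp2b13 turned to -0.024 after quantile normalisation and cyclic loess); 2 had an unadjusted p under 0.05, and 0 were called in the other scalings. Cyp2b9 read 8.72, 10.47 and 9.86 in knockout and 8.02, 9.01, 7.10 and 10.64 in rescued livers. The spread within groups was as wide as the difference of 0.99 (interval -0.48 to 2.46, adjusted p = 0.296 in limma's test), and rescued replicate 4 was the highest of all 7 arrays. Without single arrays the difference ran from 0.46 to 1.64, the last without rescued replicate 4. Cyp2b10, the usual reporter of CAR activity, read 9.90, 10.10 and 10.88 against 9.69, 10.28, 9.59 and 10.12. The groups overlapped, and the difference was 0.37 (interval -0.12 to 0.86), with 0.08 to 0.57 when an array was left out, the lowest without knockout replicate 3. Cyp2b13 and Cyp2b19 were not above the receptor genes in either group and Cyp2b23 in knockout livers alone.

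**Figure D4:**
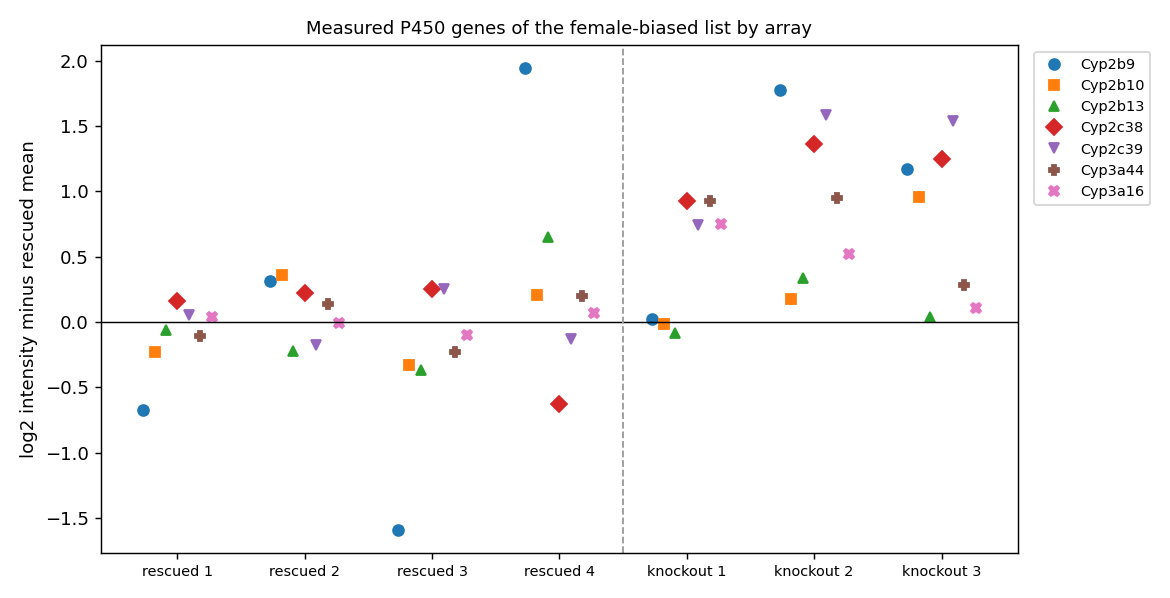
Log2 intensity of the 7 measured genes of the female-biased list in each array, each gene shown relative to its rescued mean. Cyp2c38, Cyp2c39, Cyp3a44 and Cyp3a16 lie higher in every knockout array than in any rescued array, while Cyp2b9, Cyp2b10 and Cyp2b13 overlap and rescued replicate 4 is the highest rescued array for Cyp2b9.

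The P450 genes were also grouped by their known regulation, and the female-biased list had the largest median difference of these lists. Of 13 listed, 7 had a single-symbol row, and 4 were called higher and none lower, 3 of them in every scaling. Cyp3a16, 1 of these 4, was not above the receptor genes. As background to this and the next lists, the share called higher was 9.54% of the 19933 genes, and the share called lower 4.85%. For calls in every scaling these shares were 2.61% and 4.06%. No list was tested against them. The median difference of the female-biased list was 0.72 beside 0.09 for all genes. The other genes of that list, Cyp2a4, Cyp2a5, Cyp2c40, Cyp2c69, Cyp3a41a and Cyp3a41b, were read only in rows with several symbols. These rows did not all go one way: the row that carries Cyp2c40 and Cyp2c69 was lower, by -0.40. The female-biased list was drawn up with results of these arrays known, so its count is not independent evidence of a direction. Of the male-biased Cyp2d9 and Cyp2u1 neither was called in limma's test, and 1 had an unadjusted p under 0.05. Among 11 measured genes inducible through CAR and PXR, 3 were called higher and 1 lower, with 0 and 1 in every scaling and a median of 0.15. Among 7 measured pericentral genes the counts were also 3 and 1, with 0 and 1 in every scaling and a median of 0.08. Several of these genes belong to both lists. Of the 3 genes inducible through AhR, 1 was higher and none lower, with 0 in every scaling and a median of 0.20.

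Subfamily 2a had 2 genes and no call in limma's test, with 1 at an unadjusted p under 0.05. Cyp2a12, a bile acid and steroid hydroxylase, read 10.87, 11.86 and 11.68 in knockout and 12.00, 12.03, 12.02 and 12.20 in rescued livers. All knockout arrays were lower, replicate 1 by far the most, and the difference of -0.59 (SE 0.18, adjusted p = 0.0529 in limma's test) missed the threshold. Omitting knockout replicate 1 gave -0.29, and omitting knockout replicate 2 gave -0.79, where it was called, as it was after median centring (-0.68) and when only genes over the receptor genes' cutoff were tested. Cyp2a22 differed by -0.26 below the receptor genes' cutoff.

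Subfamily 2j, whose enzymes epoxidise arachidonic acid, gave 0 calls in limma's test among 6 genes, with 1 unadjusted p under 0.05. Cyp2j5, the main form of liver and kidney, read 12.08, 12.03 and 12.10 against 12.07, 12.04, 12.07 and 12.05, overlapping throughout, with a difference of 0.008 (interval -0.13 to 0.14) that turned negative in the 3 other scalings (-0.082 to -0.044). Cyp2j6 read 8.97, 9.06 and 8.83 against 9.10, 9.21, 9.12 and 9.34. Its arrays were separate and its difference was -0.24 (adjusted p = 0.0769 in limma's test), and it was called lower after median centring (-0.33). Cyp2j9 differed by -0.20 and was not called. Cyp2j11, Cyp2j12 and Cyp2j13 were not above the receptor genes.

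The 8 genes of other subfamilies included enzymes of high known output in liver. Cyp2e1, which oxidises ethanol and paracetamol, read 13.60, 13.66 and 13.60 against 13.50, 13.54, 13.54 and 13.60. The ranges overlapped, and the difference was 0.08 (interval -0.06 to 0.22), turning to -0.013 after median centring and -0.021 after cyclic loess. Cyp2f2, known for activating naphthalene in the airway, differed by 0.04 (interval -0.10 to 0.19), turning negative in the other scalings (-0.054 to -0.014). The highest mean of any gene was 13.83, and whether signals near the top of the scale were compressed was not tested. Cyp2r1, a vitamin D hydroxylase, and Cyp2u1, a fatty acid hydroxylase, differed by -0.17 and -0.32 and were not called (adjusted p = 0.187 and 0.104 in limma's test), although Cyp2u1 was called after median centring (-0.41). Cyp2s1 and Cyp2w1, best known outside the liver, differed by 0.12 and 0.14 without a call, and Cyp2s1 turned negative after quantile normalisation and cyclic loess.

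The remaining calls were at dim rows. Cyp2g1, an enzyme of the olfactory mucosa, read 6.11, 6.35 and 6.07 against 5.93, 5.76, 5.89 and 5.85, and Cyp2t4 read 5.45, 5.36 and 5.34 against 5.13, 5.13, 5.05 and 5.05. Both were separate between groups and called higher (adjusted p = 0.0312 and 0.0186 in limma's test), at levels not above the receptor genes, whose own median difference was 0.12. Cyp2g1 was called in no other scaling, and with an array left out only without knockout replicate 3 or rescued replicate 1 (0.23 to 0.37). Cyp2t4 lost its call after quantile normalisation and cyclic loess, and with knockout replicate 1, or rescued replicate 3 or 4, omitted (0.26 to 0.28).

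Some P450 genes of the mouse were read only by probe sets that carry several symbols, and 5 such rows were tested in limma with all 27541 rows adjusted together. The row of Cyp2a5, the coumarin hydroxylase, and Cyp2a4 stood at 13.45 ± 0.08 (SD, n = 3) against 13.10 ± 0.02 (SD, n = 4), separate between groups (difference 0.35, adjusted p = 0.0153). The row of Cyp2c69, Cyp2c67, Cyp2c68 and Cyp2c40 was lower by -0.40 (adjusted p = 0.0332), the same sign as the single-symbol row of Cyp2c67. The single-symbol row of Cyp2c68 had the other sign (0.18, not called). The row of Cyp3a41a, Cyp3a41b and Cyp3a44 overlapped between groups (0.27, adjusted p = 0.106). The row of these genes with Cyp3a11 differed by 0.40 (adjusted p = 0.0350), and that of Cyp3a59, Cyp3a57 and Cyp3a25 by 0.49 (adjusted p = 0.0172). Which of the named genes gave the signal cannot be told from such rows.

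Along the chromosomes, called genes of both signs lay in the same clusters. RefSeq orders the 13 genes of subfamily 2c on chromosome 19 as Cyp2c55, Cyp2c65, Cyp2c66, Cyp2c29, Cyp2c39, Cyp2c38, Cyp2c67, Cyp2c68, Cyp2c37, Cyp2c54, Cyp2c50, Cyp2c70 and Cyp2c23. The neighbours Cyp2c39 and Cyp2c38 were higher, the next gene, Cyp2c67, was lower, and Cyp2c37 (higher) adjoined Cyp2c54 (lower). On chromosome 15, Cyp2d13 (lower) adjoined Cyp2d40 (higher). On chromosome 5 the 5 called 3a genes, Cyp3a57, Cyp3a16, Cyp3a44, Cyp3a11 and Cyp3a25, followed each other among the genes described here, all higher. Of 13 genes on chromosome 7, from subfamilies 2a, 2b and others, 2 were called.

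**Figure D5:**
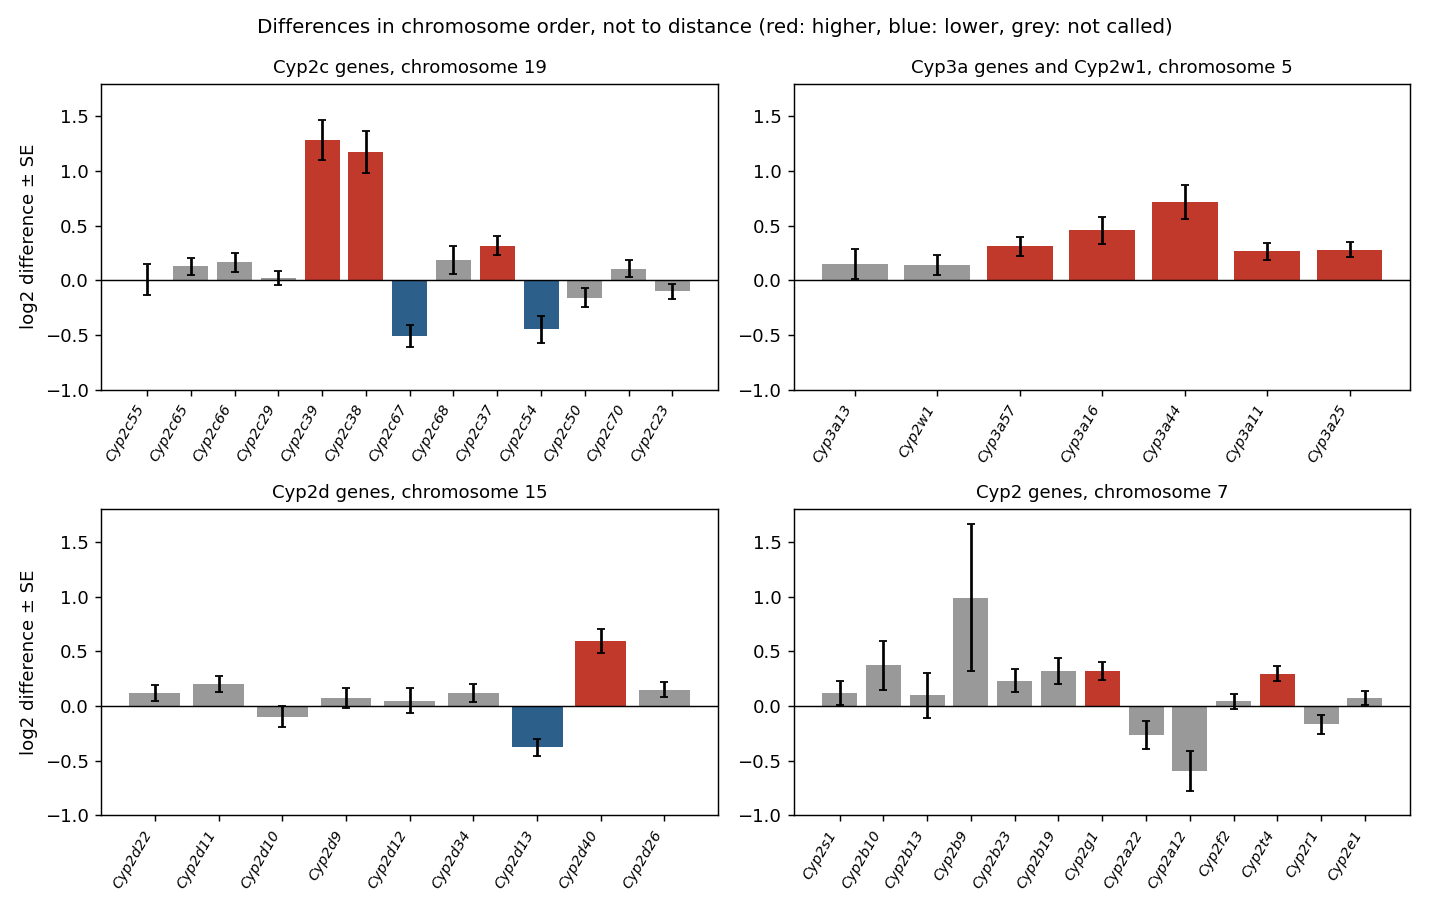
Difference in log2 intensity, knockout minus rescued, of the P450 genes in their order along each chromosome cluster; the horizontal axis gives rank and not distance, columns are differences coloured by call and error bars are standard errors. On chromosome 19 the called genes point both up (Cyp2c39, Cyp2c38, Cyp2c37) and down (Cyp2c67, Cyp2c54).

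Promoter windows of 300 bases, 250 before and 50 after the start site, were available for 44 of the 52 genes, with 47 start sites, beside 32851 start sites in all. The others were Cyp2c23, Cyp2c54, Cyp2d12, Cyp2d13, Cyp2d22, Cyp2d34, Cyp2g1 and Cyp2u1. Searched on both strands, TATAAA was in 46.8% of the P450 promoters and 13.6% of all, and AGGTCA in 34.0% and 16.3%. The HNF4A-type sequence CAAAGTCCA was in 6 of 47 P450 promoters, or 12.8%, and 0.5% of all. The AhR core sequence GCGTG was in 21.3% and 32.4%, the STAT-type palindrome TTCNNNGAA in 4.3% and 8.3%, and GTTAAT, part of the HNF1 site, in 4.3% and 7.1%. None of these motifs contains another. Of the 11 genes called higher with a promoter in the table, 7 held AGGTCA, 7 held TATAAA, 2 held CAAAGTCCA, and 0 held the other 3 motifs. Of all 44 P450 genes there, 15 held AGGTCA, 22 TATAAA, 6 CAAAGTCCA, 9 GCGTG, 2 TTCNNNGAA and 2 GTTAAT. The 1 gene called lower there, Cyp2c67, held TATAAA and CAAAGTCCA. Some P450 promoters are near copies of each other, so the counts and shares are not of independent sequences. A match is a match of letters only.

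Of the genes around the P450 enzymes, Hmox1 and Blvrb of haem breakdown were higher, and most measured receptors and redox partners did not pass. Por, the gene of the P450 reductase, had no single-symbol row, so its level was not examined. Among 8 of 9 listed redox partners measured, 2 were called higher and none lower, with 0 in every scaling and a median of 0.10: Cyb5b, an outer mitochondrial cytochrome b5, and Cyb5r3, a cytochrome b5 reductase, differed by 0.30 and 0.28. Both kept their calls only on omitting knockout replicate 3 or rescued replicate 1, and in the other fits the differences were 0.23 to 0.30. Among 11 of 12 genes of haem supply and breakdown, 2 were called higher and none lower, both in every scaling, with a median of 0.01. Hmox1, which degrades haem, read 8.45, 8.62 and 8.40 against 7.62, 7.90, 8.03 and 7.80. All knockout arrays were higher, by 1.57-fold on average (difference 0.65, adjusted p = 0.00330 in limma's test). Blvrb, a biliverdin reductase, was 1.37-fold higher (adjusted p = 0.00825). The other haem breakdown genes, Hmox2 (-0.059) and Blvra (0.01), named outside the rule, were not called. Alas1, the rate-limiting enzyme of haem synthesis, named here outside the rule for list genes, differed by 0.18 and was not called (adjusted p = 0.128).

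Of 12 measured genes of the xenobiotic receptors and their partners, 2 were called higher and none lower, with 0 in every scaling and a median of 0.07. Ahr read 10.08, 10.26 and 10.43 against 9.60, 9.83, 9.93 and 9.88, separate between groups (0.45, adjusted p = 0.0198 in limma's test, 1.36-fold), with 0.36 to 0.53 when an array was left out; omitting knockout replicate 2 (0.45) or 3 (0.36) ended the call. Tiparp, an AhR target that represses AhR, differed by 0.44 (adjusted p = 0.0448 in limma's test) and lost its call whichever array was left out (0.26 to 0.56). The genes of PXR (Nr1i2, -0.01), CAR (Nr1i3, -0.13) and their partner RXR alpha (Rxra, -0.02), named outside the rule as the receptors of subfamilies 2b and 3a, were not called. Of 5 measured AhR targets outside the P450 genes, 2 were higher, 1 in every scaling: Nqo1, a quinone reductase also induced through NRF2, was 2.05-fold higher (1.04, adjusted p = 0.00455 in limma's test). The other was Tiparp, which is already counted in the receptor list above.

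Among 28 measured liver regulators of P450 genes, 4 were called higher and 4 lower, all in every scaling, with a median of 0.02. Stat5b, which carries the growth hormone signal, was 1.68-fold higher (adjusted p = 0.00122 in limma's test). Nfil3, a repressor of clock-controlled genes, was 1.95-fold higher (adjusted p = 0.00165). Nr1h3, which encodes LXR alpha, was 1.50-fold lower (adjusted p = 0.00163). These 3 calls held with each array left out.

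Few markers of liver cell types were called. Of 10 measured hepatocyte markers 1 was called, Asgr1, lower by -0.43, and their summed intensities were 97650 to 99180 in knockout and 95320 to 97920 in rescued livers. Asgr1 had means of 10.32 and 10.75 in knockout and rescued livers. The other measured hepatocyte markers had group means of 12.95 to 13.80, near the highest mean of any gene, 13.83. Whether these signals, which make up most of the sums, were compressed was not tested. Of 10 Kupffer cell and macrophage markers 0 were called in limma's test and 1 had an unadjusted p under 0.05 (sums 4213 to 4527 and 3279 to 4846). Of 9 endothelial markers Clec4g was called lower (-0.29; sums 5141 to 6207 and 5971 to 6144), and of 10 stellate cell and fibroblast markers Lrat was called higher (0.32; 4802 to 5228 and 4622 to 5177). In that list 5 of the 10 had limma p-values under 0.05 before adjustment, the most of any marker list here. All 5 had positive differences on the deposited scale: Lrat, Des, Col1a1, Col1a2 and Col3a1, at 0.19 to 0.32. The share of all genes with such a p was higher than the 14.4% called and was not counted. The marker counts therefore have no full background beside them and cannot be read as raised. Among 6 of 7 cholangiocyte markers, 3 not above the receptor genes in both groups, 0 were called in limma's test and 2 had an unadjusted p under 0.05. The sums of deposited values did not overlap (578.1 to 657.5 and 513.2 to 562.4). After cyclic loess the differences of Sox9 (0.33) and Epcam (0.014) were positive and those of Krt7, Krt19, Cftr and Prom1 negative. Among 9 of 10 leukocyte markers, 7 not above the receptor genes in both groups, 0 were called and 3 had an unadjusted p under 0.05 (594.5 to 707.1 and 578.9 to 624.2). With an array left out Asgr1 kept its call in 3 of 7 fits (-0.57 to -0.35), lost on omitting knockout replicate 1 or 2, or rescued replicate 2 or 3. Clec4g kept it only without knockout replicate 2 (-0.37 to -0.19) and Lrat only without knockout replicate 3 (0.23 to 0.38). No value in the table was 0. The part of these cells in the P450 differences was not tested.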

How the data were processed

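Livers of 3 knockout and 4 rescued mice were measured on 1 array each. The deposited values are intensities on a linear scale, made by the authors with RMA and Partek, per the submitters' processing notes; no build was named there (build: not given in the sources used here). From these, log2 values were taken and the brightest of a gene's single-symbol rows kept. Of 27541 rows, 21631 carried 1 symbol, 1317 several and 4593 none. Groups came from the labels. Knockout and rescued arrays were compared in limma 3.58.1 (R 4.3.3; lmFit and eBayes, two-sided, threshold 0.05); p-values measure the spread between arrays labelled biological replicates. The fit was tested on simulated data. Alternatives were 3 scalings, 2 filters on dim genes, the mean of a gene's rows, trend and robust settings, array weights, the replicate block and each array left out.

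The genes and lists were chosen with earlier results of these data known. Values by array were given for every called member with separate groups, for Cyp1a1, Cyp1a2, Cyp2b10, Cyp2e1, Cyp3a11 and Cyp2d9, and for the member with the highest mean of subfamilies 1a, 1b, 2a, 2b, 2c, 2d, 2j and 3a. Cyp2j6 and the other members named fall outside this rule. Of list genes, up to 3 called per list with the smallest p were named, with values by array only for Hmox1, Ahr and Hdac3. Promoters were read with Python 3.11.15 and aligned globally with Biopython 1.88; protein sequences were not analysed here. Figures were drawn with matplotlib 3.10.9. The number of arrays limits the precision.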

Additional observations from a re-analysis of the deposited data

Results flagged for a closer look

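In 4 of the 52 genes, the array farthest from the rest of the 4 rescued arrays lay beyond the 95% critical value of Dixon's gap test, which chance does in about 1 group in 20. Rescued replicate 4 of Cyp2c38 was low, at 8.815, and without it the difference was 0.97 and the call held. Rescued replicate 2 of Cyp2c23 was high, at 12.98. Rescued replicate 2 of Cyp2d12 was low, at 4.575, and rescued replicate 4 of Cyp2j11 was high, at 5.114; neither gene was above the receptor genes. Groups of 3, such as the knockout arrays, were not examined in this way.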

How the results depend on the processing

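The count of P450 genes called higher was 12 as deposited, 6 after quantile normalisation, 5 after median centring and 5 after cyclic loess, and 3 to 10 with 1 array left out. The count called lower was 3 as deposited, 6 after median centring, and 2 to 4 with 1 array left out. Over all genes 2867 were called, and 897 to 3263 with 1 array left out; the fewest came without knockout replicate 1. Of the 15 called genes, 9 kept their call and sign after quantile normalisation, 8 after median centring, 8 after cyclic loess, 12 with array weights and 10 with all rows of the table fitted, an alternative chosen after seeing the data. Of the 24 genes selected by the naming rule, the sign turned for 4, none of them called: Cyp2e1 (-0.013 after median centring, -0.021 after cyclic loess), Cyp2d9 (-0.015 after median centring, and -0.034 to 0.131 with 1 array left out, the lowest without knockout replicate 1), Cyp2c29 (-0.054, -0.066 and -0.056 after quantile normalisation, median centring and cyclic loess) and Cyp2j5 (-0.046, -0.082 and -0.044 likewise, and -0.0065 to 0.0282 with 1 array left out, the lowest without knockout replicate 3). With the replicate number as a block, 9 P450 genes were higher and 3 lower, of 1938 genes in all, and 11 of the 15 calls were kept. Rescued replicate 4 has no knockout array of its number, so it adds nothing to the differences in that fit. They equal those without this array, such as 0.9702 for Cyp2c38. The arrays themselves correlated at 0.9877 to 0.993 between groups. To look for pairing, each gene's group mean was first subtracted, and the deviations left were correlated. For these deviations, same-numbered arrays correlated at 0.151, 0.00276 and 0.0053, and knockout replicate 2 correlated best with rescued replicate 3 (0.148). The value of 0.151, for the replicates numbered 1, was the highest of these deviation correlations between any knockout and rescued array. These correlations neither show nor exclude a pairing of the mice by number. The 2 filters on dim genes left 8 higher each, since the 4 dim called genes were not tested. The deposited scale carries an offset between the groups of 0.09 over all genes, beside a smallest called difference of 0.26 (Cyp3a11). Close paralogs may bind each other's probes, and 3 against 4 arrays leave small differences unresolved.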

Other observations

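Promoters of close paralogs were compared with the differences of their genes. The windows of Cyp2b9 and Cyp2b13 were 99.3% identical over 300 bases; Cyp2b9 differed by 0.99 and Cyp2b13, which was not above the receptor genes, by 0.10, and neither was called. Cyp3a16 and Cyp3a44 were 94.7% identical, and both were called higher as deposited. Cyp3a25 and Cyp3a57 were 90.3% identical, and both were called higher as deposited, Cyp3a57 at a level not above the receptor genes. Cyp2c37 and Cyp2c50 were 88.0% identical; Cyp2c37 differed by 0.32 and was called, and Cyp2c50 differed by -0.16 and was not. Cyp2c67 and Cyp2c68 were 76.7% identical, with differences of -0.51 and 0.18. The differences within these pairs were not tested against each other. Over the 65 pairs of start sites within subfamily 2c the median identity was 58.0%, and the highest 88.0%.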
